A study of Homo sapiens with 6 samples.

Results

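Transcripts of 8 human fucosyltransferase genes were followed in HEK293 cells, an established line from human embryonic kidney, after exposure to minocycline. Total RNA was sequenced in 3 libraries of cells given 100 µM minocycline for 12 h and in 3 libraries of cells given the DMSO vehicle for the same time, and neither group was heat shocked. The members were FUT1, FUT2, FUT4, FUT8, FUT10, FUT11, POFUT1 and POFUT2, each found by its Ensembl identifier among the 57820 genes of the count table. FUT1 was chosen by its rise in this same comparison, and the other 7 were chosen by family. The polysome fractions that the title of the study names were not analysed here.

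Fucosyltransferases transfer fucose from GDP-fucose to sugars or to proteins. FUT1 and FUT2 cap terminal galactose and so make the H antigen, the precursor of the ABO blood groups; FUT4 makes the Lewis x structure, and FUT8 adds the core fucose of N-glycans. POFUT1 and POFUT2 place O-fucose directly on folded protein modules in the endoplasmic reticulum, POFUT1 on the epidermal growth factor-like repeats of Notch receptors and POFUT2 on thrombospondin repeats. FUT10 and FUT11, long classed with the Lewis-type enzymes, carry the newer symbols POFUT3 and POFUT4 as protein O-fucosyltransferases. Minocycline belongs to the tetracyclines, antibiotics that act on the bacterial ribosome.

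The libraries held 17303180 to 17835756 counts each. Of 17225 genes tested, 9 passed, which is 0.0522% (edgeR's quasi-likelihood test, Benjamini-Hochberg adjusted p under 0.05). Control replicate 1 stood apart from the other controls. On the first principal component, which held 52.9% of the variance, it lay at -34.9, the minocycline libraries lay between -32.3 and 3.06, and control replicates 2 and 3 lay at 31.1 and 47.1. Ribosomal protein genes took 7.19% to 10.6% of the counts in the minocycline libraries, 7.26% in control replicate 1, and 10.8% and 12% in control replicates 2 and 3. The listed HEK293 markers NEFM, VIM, CDH2 and PAX2 were present in every library (4 of 6 listed markers were matched). PAX2 had 2.61 to 5.08 CPM in minocycline libraries and 3.59 to 4.47 CPM in controls. PTPRC of leukocytes, ALB of hepatocytes, KRT5 of basal epithelium and HBB of erythroid cells had at most 9 counts in any library. PECAM1 of endothelium was not matched, so that cell type was not checked. COL1A1, a fibroblast marker, was present at 53 to 70 CPM with minocycline and 72.8 to 81.1 CPM in controls.

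FUT1 transcripts were 3.68-fold higher with minocycline. FUT1 stood at 26.7, 21 and 25.4 CPM (read counts scaled to a common library size with TMM factors) in minocycline replicates 1, 2 and 3, against 6.3, 7.46 and 6.11 CPM in control replicates 1, 2 and 3. The lowest treated library thus lay well above the highest control, and control replicate 1 lay between the other controls. The underlying read counts were 489, 387 and 444 with minocycline and 116, 125 and 101 in controls. The group means were 24.4 ± 2.97 and 6.62 ± 0.733 CPM (SD, n = 3 each). The log2 fold change was 1.88 ± 0.17 (SE), and it was 2.07, 1.48 and 2.04 within batches 1, 2 and 3, each of which held 1 library of either group. Of the 15457 tested genes with a mean of at least 1 CPM, 9 had a larger log2 fold change. FUT1 was chosen for its rise in this same comparison. This fold change and its edgeR adjusted p of 0.00694 thus describe the choice and are not a test. FUT1 was the 1 member that passed, which restates its choice. Over all genes tested, 0.0522% passed. The adjusted p nearest the threshold was 0.0488 on the passing side, for VEGFA, and 0.0523 on the other, for SLC1A4. In bulk RNA, a gene active in more cells and more RNA per cell cannot be told apart.

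**Figure D1:**
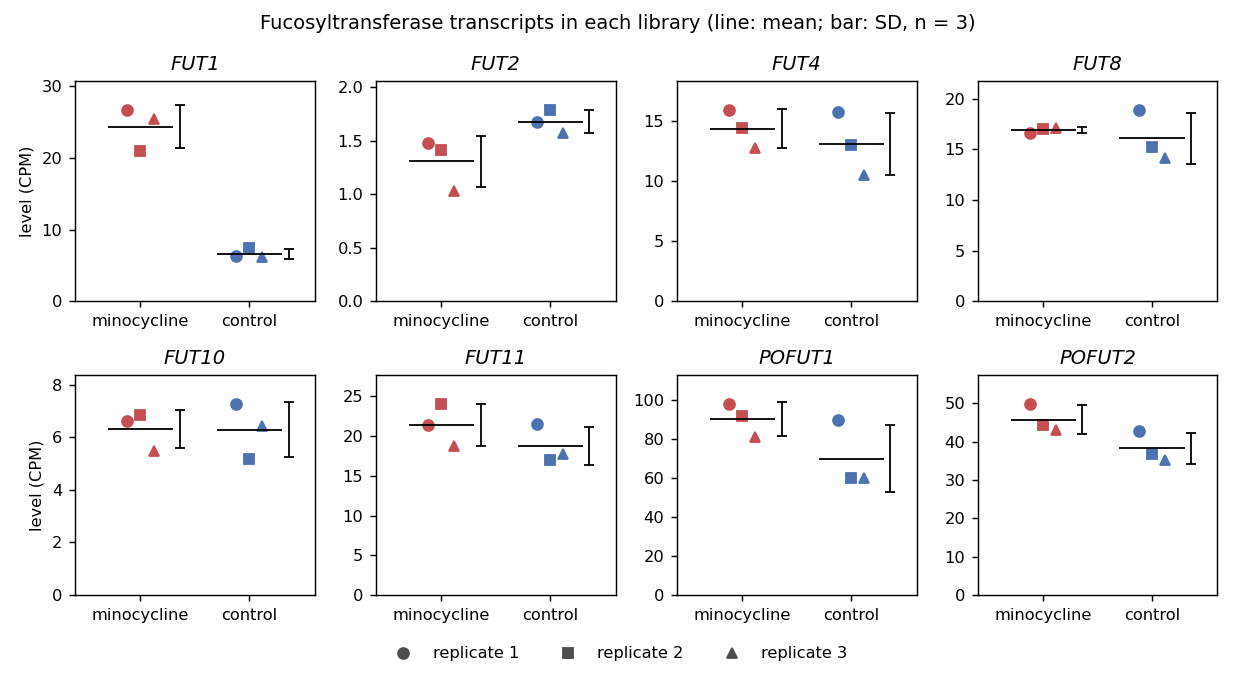
Level of each fucosyltransferase gene in CPM (y axis, from 0) in the 3 minocycline and 3 control libraries; symbols mark the replicate, lines the mean and bars the SD. FUT1 lies at 21 to 26.7 CPM with minocycline and at 6.11 to 7.46 CPM in controls, whereas in FUT4, FUT8, FUT10, FUT11 and POFUT1 the groups overlap.

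FUT1 (ENSG00000174951.6) is protein-coding and lies on the minus strand of chromosome 19, from 49251268 to 49258647 in GRCh37 (hg19). Its annotated transcripts begin at 3 places: 3 transcripts at the outermost, 49258647, another 3 at 49256917 and 1 at 49255898. Counts per gene do not show which start was used. The outermost FGF21 start, 49258781, lies 134 bases beyond the outermost FUT1 start on the opposite strand, so the genes point away from each other. FGF21 has another annotated start at 49259344, with 1 transcript at each. FGF21 encodes a secreted metabolic hormone and is known as a gene that the transcription factor ATF4 induces. Promoter windows of 300 bases, 250 before and 50 from the start, were taken from RefSeq (GRCh38.p14). Of the 8 members, 7 had a window, and 10 windows were available for them. The outer FUT1 window and the FGF21 window share 265 bases. The outer and inner FUT1 windows are printed because FUT1 carries the change, the FUT2 window as that of the closest relative on the same chromosome, and the POFUT1 window as that of the most abundant member per exon length. Capitals mark a match to TGATGNAAT, the composite element where a C/EBP half-site adjoins an ATF half-site, known from the DDIT3 promoter.

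FUT1 outer start, chr19:48755309-48755608, minus strand: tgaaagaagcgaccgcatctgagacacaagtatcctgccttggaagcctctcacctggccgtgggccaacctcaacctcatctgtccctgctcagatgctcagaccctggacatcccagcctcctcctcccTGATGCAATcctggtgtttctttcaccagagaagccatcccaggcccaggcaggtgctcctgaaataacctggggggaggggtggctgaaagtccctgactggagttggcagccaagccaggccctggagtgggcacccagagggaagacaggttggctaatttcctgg
FUT1 inner start, chr19:48752592-48752891, minus strand: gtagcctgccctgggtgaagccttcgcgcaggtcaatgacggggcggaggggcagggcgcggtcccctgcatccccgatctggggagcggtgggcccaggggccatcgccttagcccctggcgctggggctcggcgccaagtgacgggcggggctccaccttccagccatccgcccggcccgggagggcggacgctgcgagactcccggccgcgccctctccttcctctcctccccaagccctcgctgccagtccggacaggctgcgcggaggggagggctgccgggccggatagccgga
FUT2, chr19:48695721-48696020, plus strand: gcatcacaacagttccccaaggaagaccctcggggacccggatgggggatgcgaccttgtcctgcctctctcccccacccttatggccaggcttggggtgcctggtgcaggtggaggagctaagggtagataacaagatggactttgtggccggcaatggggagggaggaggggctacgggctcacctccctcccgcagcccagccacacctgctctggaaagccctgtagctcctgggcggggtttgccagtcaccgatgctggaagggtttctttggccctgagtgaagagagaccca
POFUT1, chr20:32207630-32207929, plus strand: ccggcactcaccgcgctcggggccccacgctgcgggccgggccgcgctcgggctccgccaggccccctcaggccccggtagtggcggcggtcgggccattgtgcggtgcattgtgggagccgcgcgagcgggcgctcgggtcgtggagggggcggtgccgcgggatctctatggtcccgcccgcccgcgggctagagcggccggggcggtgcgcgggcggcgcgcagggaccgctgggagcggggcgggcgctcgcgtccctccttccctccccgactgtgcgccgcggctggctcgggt

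The match lies at positions 48755469 to 48755477 of GRCh38.p14, begins 119 bases before the RefSeq start of FUT1 and reads TGATGCAAT on the FUT1 strand. The inner window, placed at the 49255898 start in GRCh37, held no match, and no RefSeq window covered the start at 49256917. The matched letters occur in GRCh37 from 49258726 to 49258734, between the annotated starts of FUT1 and FGF21. TGATGNAAT was searched on both strands and was found in 348 of 35116 RefSeq windows (0.991%), which belong to 1.22% of genes. Among the 10 member windows it occurred in the outer FUT1 window alone. The cyclic AMP element TGACGTCA (1.85% of all windows) and the endoplasmic reticulum stress element ERSE (0.0769%) had 0 matches in the member windows, and the E-box CACGTG (7.26%) had 1, in FUT11. The motifs differ in letters and the matches found did not overlap. These are matches of letters, and no binding was measured.

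Around FUT1, both flanking genes on chromosome 19 had higher levels in all minocycline libraries and neither passed. FGF21 had 38, 31 and 60 counts in minocycline replicates 1, 2 and 3, against 15, 25 and 14 in control replicates 1, 2 and 3. Its log2 fold change was 1.18 ± 0.38 (adjusted p = 0.82). Within batches 1, 2 and 3 it was 1.25, 0.16 and 1.90. IZUMO1, a sperm protein gene that begins 1102 bases past the end of FUT1 on the same strand, had 20, 20 and 14 counts against 5, 7 and 12, a log2 fold change of 1.08 ± 0.43 (adjusted p = 0.82). All minocycline libraries lay above all controls in 5.74% of the genes tested. The other 6 tested neighbours, RASIP1, MAMSTR, CA11, NTN5, BCAT2 and HSD17B14, had log2 fold changes between -0.41 and -0.22 and none passed. SEC1P, a pseudogene related to FUT2, had at most 7 counts in any library and was not tested. The median over the 8 tested neighbours was -0.25, against 0.01 over all genes tested. Without minocycline replicate 3, which had the most FGF21 counts, the log2 fold change of FGF21 was 0.83.

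**Figure D2:**
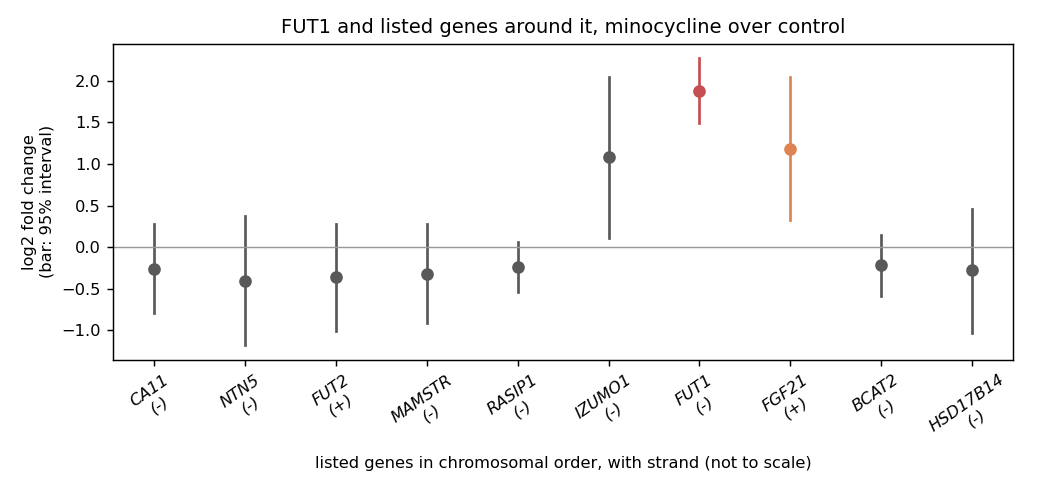
Log2 fold change of minocycline over control (y axis, points with 95% intervals) for FUT1, FUT2 and the tested genes listed around them, in chromosomal order with the strand under each name. FUT1 at 1.88, FGF21 at 1.18 and IZUMO1 at 1.08 lie above 0, and the remaining genes lie between -0.41 and -0.22.

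FUT2, the other enzyme of the H antigen, was the scarcest member. It had 1.48, 1.41 and 1.03 CPM in minocycline replicates 1, 2 and 3, against 1.68, 1.79 and 1.57 CPM in control replicates 1, 2 and 3. All treated libraries were a little below all controls, on 18 to 27 counts with minocycline and 26 to 31 in controls. The log2 fold change of FUT2 was -0.36 ± 0.29, with a 95% interval from -1.01 to 0.28 (adjusted p = 0.825). FUT2 lies 42060 bases from FUT1. FUT1 transcripts share no stretch of 50 bases with those of another fucosyltransferase. FUT2 shares 146 such stretches of 3377 with SEC1P, so that the FUT2 counts are less certain. Over genes of any kind, FUT11 shares 14.6% of its stretches, FUT8 12.8%, FUT4 11%, FUT2 7.58% and POFUT2 4.2%. FUT1 shares 2.01%, POFUT1 0.693% and FUT10 0%, so this uncertainty is not particular to FUT2.

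The Lewis-type and core enzymes overlapped between the groups. FUT4, the Lewis x enzyme, had 15.9, 14.4 and 12.7 CPM with minocycline and 15.7, 13 and 10.5 CPM in controls. Its log2 fold change was 0.14 ± 0.19 (95% interval -0.29 to 0.56, adjusted p = 0.874). FUT8, the core fucosyltransferase, had 16.6, 17 and 17.1 CPM with minocycline and 18.9, 15.2 and 14.1 CPM in controls. The treated FUT8 values lay within the range of the controls, and the log2 fold change was 0.07 ± 0.16 (95% interval -0.29 to 0.43, adjusted p = 0.917). In both genes control replicate 1 was the highest control. FUT4 shares 602 exon bases with PIWIL4 on the same strand and 652 with PIWIL4-AS1 on the opposite strand, and FUT8 shares 824 with FUT8-AS1. The sources used here do not say whether reads were counted by strand, so part of these counts may belong to those partners.

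The protein O-fucosyltransferases gave small positive estimates that did not pass. POFUT1 had 98.3, 92 and 81.1 CPM in minocycline replicates 1, 2 and 3, against 89.8, 60.2 and 60 CPM in control replicates 1, 2 and 3. Control replicate 1 thus sat among the treated libraries, and the other controls sat below them. The log2 fold change of POFUT1 was 0.37 ± 0.18 (95% interval -0.03 to 0.77, adjusted p = 0.82). POFUT2 had 49.9, 44.4 and 42.9 CPM with minocycline and 42.7, 36.8 and 35.2 CPM in controls. The groups of POFUT2 were separated by the narrow gap between 42.9 and 42.7 CPM, and the log2 fold change was 0.26 ± 0.14 (95% interval -0.05 to 0.57, adjusted p = 0.82). FUT11 had 21.4, 24.1 and 18.7 CPM with minocycline and 21.5, 17 and 17.8 CPM in controls, a log2 fold change of 0.19 ± 0.17 (adjusted p = 0.829). FUT10 had 6.61, 6.85 and 5.49 CPM with minocycline and 7.28, 5.19 and 6.41 CPM in controls, a log2 fold change of 0.00 ± 0.20 (95% interval -0.45 to 0.46, adjusted p = 0.998). FUT11 shares 587 exon bases with 1 gene on the opposite strand and 220 with another, and POFUT2 shares 310 with such a gene. Part of their counts is thus uncertain as well. POFUT1 shares 53 exon bases with MIR1825 on the same strand.

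Set beside FUT1, 0 of the 7 relatives passed in edgeR, and 0 of them had an unadjusted p under 0.05. DESeq2 and limma-voom likewise passed 0 of the 7. Their log2 fold changes ran from -0.36 to 0.37 with a median of 0.14, against 0.01 over all genes tested. Of the 7, 6 were above 0, as were 8975 of the 17225 genes tested. The highest upper bound among their 95% intervals was 0.77, in POFUT1. FUT1 was chosen for its rise, so setting its fitted 1.88 beside this bound is not a test. Of the 7 relatives, 1 lay above every control in all minocycline libraries (POFUT2), 1 lay below (FUT2) and 5 overlapped. Over all genes tested, 5.74% lay above and 3.56% below. FUT1 also lay above but is not counted, as it was chosen for its rise. In 6 of the 7 relatives, all but FUT2, control replicate 1 was the highest control, and in FUT1 it was not. With control replicate 1 left out, POFUT1 had a log2 fold change of 0.59 ± 0.12 and passed (adjusted p = 0.00657), POFUT2 had 0.35 ± 0.13 (adjusted p = 0.077) and FUT11 had 0.30 ± 0.15 (adjusted p = 0.19). In that setting 17.9% of all genes passed, and the median log2 fold change over all genes tested was 0.03. FUT1 had 1.84 ± 0.18 there. Without minocycline replicate 1 or minocycline replicate 3 no member passed: FUT1 had log2 fold changes of 1.81 (adjusted p = 0.104) and 1.84 (adjusted p = 0.0834), and 1 gene passed in the whole table.

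**Figure D3:**
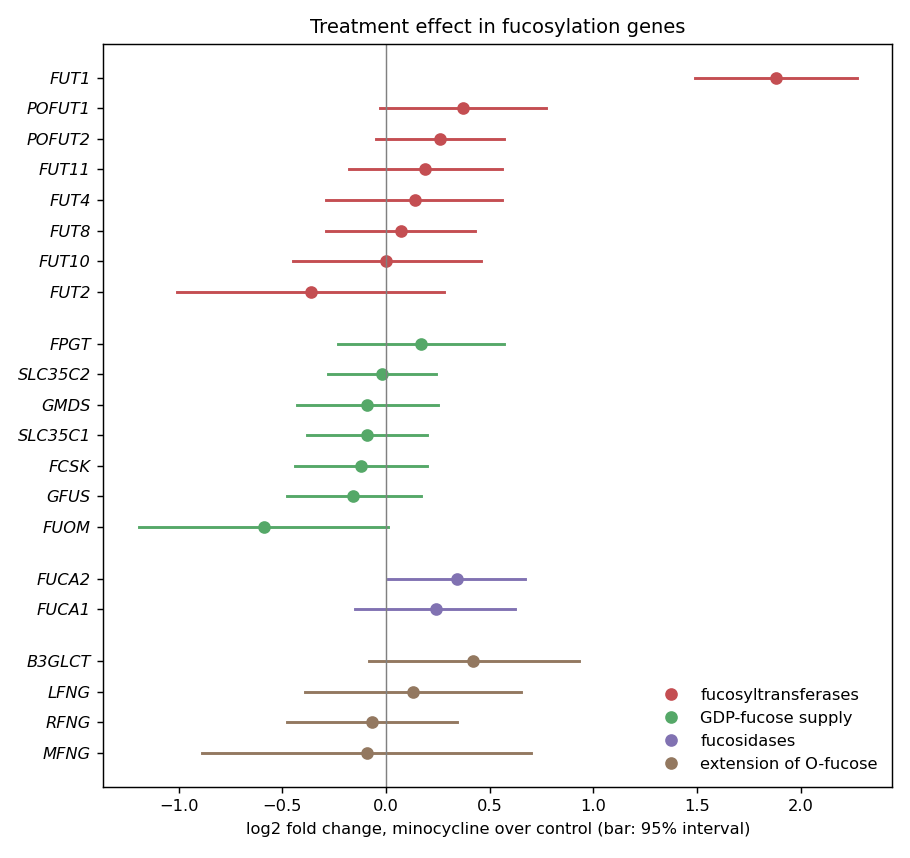
Log2 fold change of minocycline over control (x axis, points with 95% intervals) for the 8 fucosyltransferases, 7 genes of GDP-fucose supply, 2 fucosidases and 4 enzymes that extend O-fucose. FUT1 lies at 1.88, and the 7 relatives lie between -0.36 and 0.37.

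**Figure D4:**
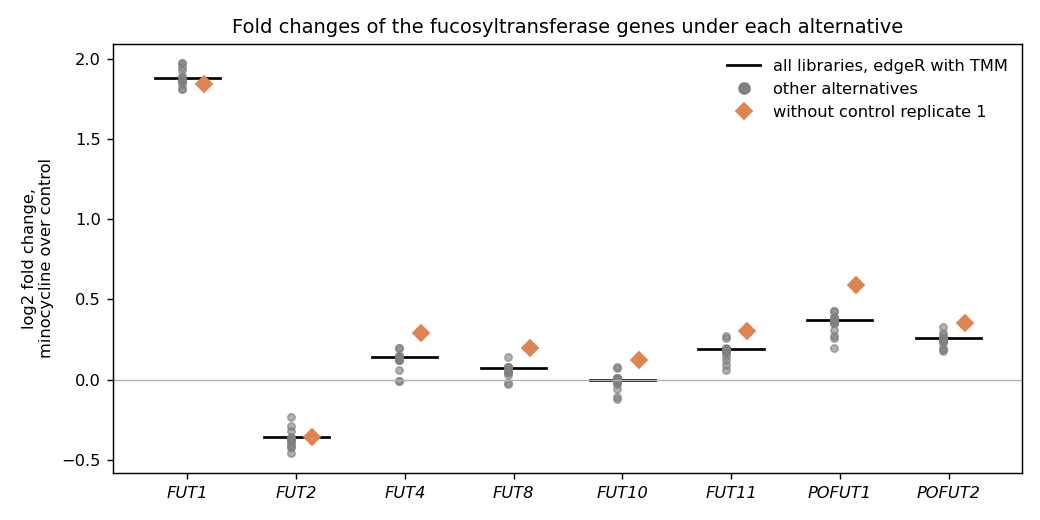
Log2 fold change of each fucosyltransferase gene (y axis) with all libraries (black line) and under each of the 15 alternatives (points; diamonds leave out control replicate 1). FUT1 stays between 1.81 and 1.97, while POFUT1 moves between 0.20 and 0.59.

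The order of the members by level was compared per kb of exon, using the length of all annotated exons of each gene. On this length POFUT1 was the most abundant member, at 13.6 ± 1.31 CPM per kb with minocycline and 10.5 ± 2.58 CPM per kb in controls (SD, n = 3 each). POFUT2 followed at 7.8 ± 0.636 and 6.52 ± 0.672 CPM per kb. FUT1 came next with minocycline at 5.61 ± 0.683 CPM per kb, against 1.53 ± 0.169 CPM per kb in controls. FUT11 had 4.35 ± 0.548 and 3.81 ± 0.481 CPM per kb, and its treated values overlapped those of FUT1. FUT8 (2.42 ± 0.0356 and 2.3 ± 0.355 CPM per kb) and FUT4 (2.4 ± 0.264 and 2.18 ± 0.435 CPM per kb) did not differ beyond their spread. FUT10 had 1.18 ± 0.137 and 1.18 ± 0.197 CPM per kb, and FUT2 had 0.386 ± 0.0716 and 0.498 ± 0.0325 CPM per kb. In controls FUT1 ranked 6 of the 8 in every library, and with minocycline it ranked 3 or 4. FUT1 made up 15.2%, 12.9% and 16.7% of the summed level of the 8 genes per kb in minocycline replicates 1, 2 and 3, against 4.3%, 6.52% and 5.51% in control replicates 1, 2 and 3. The summed level of the other 7 was 34.4, 32.9 and 29.2 CPM per kb with minocycline and 32.3, 24.6 and 24.1 CPM per kb in controls, with control replicate 1 again among the treated values. With the length of the main annotated transcript in place of all exons, FUT1 ranked 4 in each minocycline library and 5 to 7 in controls. On that length POFUT1 averaged 17.3 ± 1.66 CPM per kb with minocycline and 13.4 ± 3.28 CPM per kb in controls, and POFUT2 averaged 16 ± 1.3 and 13.4 ± 1.38 CPM per kb. POFUT2 was then above POFUT1 in control replicates 2 and 3, so the order of these genes depends on the length used.

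**Figure D5:**
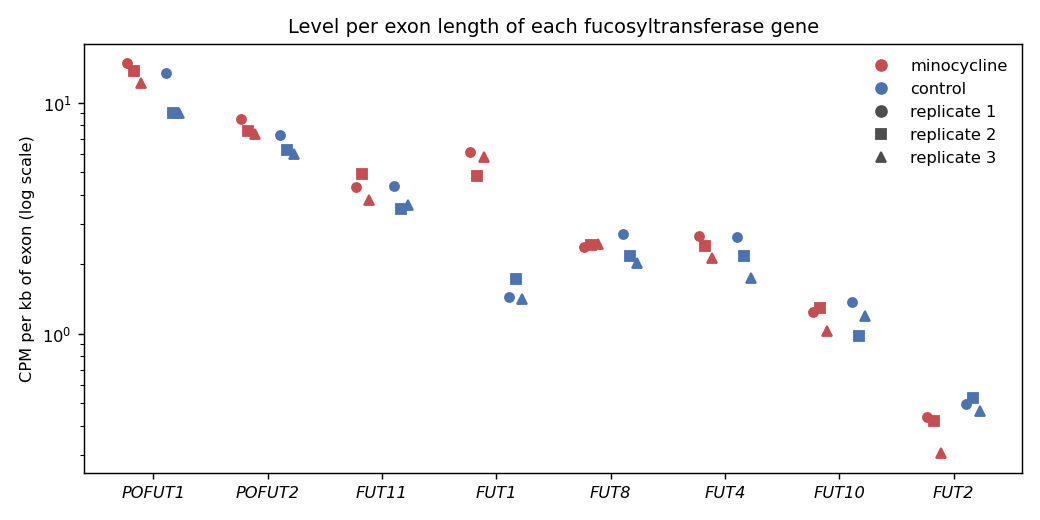
Level of each fucosyltransferase gene in CPM per kb of exon (y axis, log scale) in each library, with genes ordered by their mean. The minocycline libraries of FUT1 (4.84 to 6.15) stand apart from its controls (1.41 to 1.72) by the widest gap on this plot. FUT1 was chosen for its rise in these same libraries.

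The remaining fucosyltransferase genes were almost silent. FUT3, a Lewis enzyme, had 9 to 15 counts with minocycline and 7 to 13 in controls and was the only one of the 5 that entered the test (log2 fold change 0.23 ± 0.42, adjusted p = 0.9). FUT5, FUT6, FUT7 and FUT9 had at most 10 counts in any library.

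GDP-fucose, the donor that the fucosyltransferases use, is made from GDP-mannose by GMDS and GFUS or salvaged from free fucose by FCSK and FPGT, and SLC35C1 carries it into the Golgi. Of 7 genes of this supply none passed, and 6 had estimates below 0, as had 8250 of the 17225 genes tested. The median log2 fold change of the supply genes was -0.09 (-0.16 without control replicate 1). GMDS had a mean of 47.2 ± 1.64 CPM with minocycline and 50.3 ± 8.47 CPM in controls, with a log2 fold change of -0.09 ± 0.15. GFUS had 68.6 ± 5.39 and 76.5 ± 11.4 CPM, with a log2 fold change of -0.16 ± 0.15. The salvage enzymes FCSK and FPGT gave log2 fold changes of -0.12 ± 0.14 and 0.17 ± 0.18. The transporter SLC35C1 gave -0.09 ± 0.13 and its relative SLC35C2 gave -0.02 ± 0.12. FUOM, the fucose mutarotase, had the largest estimate of the list, -0.59 ± 0.27 (adjusted p = 0.82), on 2.51, 2.77 and 3.2 CPM with minocycline and 2.88, 4.96 and 4.96 CPM in controls. The groups of FUOM overlapped through control replicate 1, and FUOM passed without that library (adjusted p = 0.0289).

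The fucosidases FUCA1 and FUCA2 remove fucose from glycans. FUCA1 had a log2 fold change of 0.24 ± 0.17 (adjusted p = 0.82). FUCA2 had 133, 130 and 134 CPM with minocycline and 127, 92.5 and 94.9 CPM in controls, a log2 fold change of 0.34 ± 0.15 (adjusted p = 0.82). Treated FUCA2 values lay above all controls, with control replicate 1 the nearest, and FUCA2 passed without control replicate 1 (adjusted p = 0.0094). The median of the pair was 0.29, and 0.45 without that library.

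The acceptor of FUT1 is a galactose-ended chain, and 12 of 15 listed enzymes that build or modify such chains were measured well enough to test. None passed, and 10 had estimates above 0, as had 8975 of the 17225 genes tested. Their median log2 fold change was 0.24. Without control replicate 1 the median was 0.50, against 0.03 over all genes tested. There 2 of the 12 passed as higher, in a setting where 17.9% of all genes passed. B4GALT1, which adds galactose to N-acetylglucosamine, had 61.4, 55.5 and 52.1 CPM with minocycline and 48, 40.7 and 38.6 CPM in controls. Its groups did not overlap, and its log2 fold change was 0.41 ± 0.14 (adjusted p = 0.82). The galactosyltransferases B3GALT5 and B4GALT2 gave 0.41 ± 0.24 and -0.21 ± 0.13. ABO, whose A and B forms extend the H antigen, had at most 2 counts in any library.

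On the O-fucose side, B3GLCT adds glucose to the O-fucose placed by POFUT2, and the Fringe enzymes LFNG, MFNG and RFNG extend the O-fucose of Notch. The log2 fold changes were 0.42 ± 0.22 for B3GLCT, 0.13 ± 0.23 for LFNG, -0.09 ± 0.35 for MFNG and -0.07 ± 0.18 for RFNG, and none passed. Their median was 0.03, and 0.12 without control replicate 1. Of 8 Notch receptor and ligand genes none passed, and the median was 0.12, against 0.29 without that library. The ligand gene DLL4 had 4.48, 5.65 and 5.26 CPM with minocycline and 3.8, 2.81 and 1.33 CPM in controls (log2 fold change 0.95 ± 0.33, adjusted p = 0.82), and its groups did not overlap. DLL3, a Notch ligand relative, had -0.50 ± 0.21, and NOTCH2 had 0.42 ± 0.37. Over all the related lists together, glycan genes and neighbours alike, 66 of 74 genes were tested, 0 passed in edgeR, DESeq2 or limma-voom, 9 had an unadjusted p under 0.05 (809 of 17225 over all genes tested), and the median log2 fold change was 0.09. Without control replicate 1, 15 of the 66 passed as higher and 3 as lower, with 17.9% passing over all genes. B4GALT1 (adjusted p = 0.0151), B3GLCT (0.0108), DLL4 (0.00977), NOTCH2 (0.00263) and BCAT2 (0.0314) were among them, by edgeR's quasi-likelihood test.

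The genes whose pattern over the 6 libraries was most like that of FUT1 were ranked by Pearson's r of log2 CPM among tested genes with a mean of at least 1 CPM. They were MTHFD2, a mitochondrial folate enzyme (r = 0.997), EIF2S3, the gamma subunit of the initiation factor eIF2 (0.991), EPHA2-AS1 (0.990), an antisense gene that unstranded counting would mix with EPHA2, RXYLT1, a xylosyltransferase of dystroglycan (0.988), and NPIPB11 (0.986), a member of a multigene family whose reads are uncertain. MTHFD2 had 233, 215 and 227 CPM with minocycline and 126, 136 and 133 CPM in controls, so that the order of the libraries within each group matched that of FUT1 apart from the 2 lowest controls. The likeness is one of shape, since log2 fold changes of these 5 ran from 0.25 in NPIPB11 to 0.77 in MTHFD2, against 1.88 in FUT1. None of these 5 passed in edgeR (adjusted p from 0.078 to 0.825), although MTHFD2 passed in DESeq2 (adjusted p = 8.88e-06) and without control replicate 1 (adjusted p = 0.00142), and of the 4 with a RefSeq window none held TGATGNAAT. FGF21 had an r of 0.87 with FUT1. Among the relatives, r was 0.78 for POFUT2, 0.65 for POFUT1, 0.46 for FUT11, 0.39 for FUT4, 0.30 for FUT8, -0.06 for FUT10 and -0.73 for FUT2. These values describe 6 points that share the treatment split and the batch.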

How the data were processed

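Gene counts of 6 total RNA libraries were analysed. The authors deposited a table of raw counts per gene, whole numbers without normalization, whose identifiers carry no symbols, and the genome build was hg19 per the submitters' processing notes. Aligner, counter, annotation, RNA selection and strandedness: not given in the sources used here. Symbols were found for 55538 of 57820 identifiers in a table of gene names. Positions, exon lengths and overlaps came from a GENCODE annotation of GRCh37, which need not be the annotation the authors counted on, and promoter windows came from RefSeq (GRCh38.p14).

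Groups followed the treatment label. The design text calls the libraries biological replicates, and no library repeated another (chi-square over degrees of freedom 5.8 to 63.6 for pairs of one group). Genes were filtered with filterByExpr, scaled with TMM and tested across all genes with edgeR 4.0.16 (quasi-likelihood, R 4.3.3), with treatment as the single term and a Benjamini-Hochberg adjusted p under 0.05. The standard error was the log2 fold change divided by the square root of F, and 95% intervals used the moderated degrees of freedom. Within-batch differences were taken after adding 0.1 CPM. The fit was tested on simulated data. Alternatives used DESeq2 1.42.0, limma 3.58.1 and sva 3.50.0.

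The labels give the replicate number as the batch, so same-numbered libraries are paired by label. Their deviations from the group means correlated at -0.05, -0.29 and 0.30.

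The members and the gene lists were chosen with earlier results of these data known. Named genes were all members, all genes of the supply, fucosidase, remaining fucosyltransferase and neighbour lists, the 3 genes with the smallest p of each other list, and the 5 genes most like FUT1. MFNG, ABO, VEGFA and SLC1A4 were named outside this rule after their values were seen.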

Additional observations from a re-analysis of the deposited data

How the results depend on the processing

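Over 15 alternatives the log2 fold change of FUT1 ran from 1.81 to 1.97. The count of members that passed was 1 in 12 alternatives, the replicate block (paired by batch) included, and ran from 0 to 2 over the libraries left out singly. It was 2 without control replicate 1 (FUT1 and POFUT1) and 0 without minocycline replicate 1 or 3. The count for the related lists was 0 in every alternative but the omission of control replicate 1, where it was 18. Over all genes the count was 9, and it was 13 with the replicate block, 47 with DESeq2, 94 with no filter on low counts, 91 with 1 surrogate variable, and 1 to 3154 over the libraries left out singly. The block changed no call among the 46 named genes that were refitted; VEGFA, SLC1A4, MFNG and ABO were not among them. MTHFD2 passed under 5 alternatives: DESeq2, no filter, library size alone, without control replicate 1, and with 1 surrogate variable. Estimates near 0 changed sign. With 1 surrogate variable they became -0.11 for FUT10, -0.01 for FUT4, -0.03 for FUT8, 0.07 for GMDS, 0.01 for SLC35C2, -0.06 for LFNG, 0.17 for RFNG and 0.03 for CA11. FUT10 was -0.02 with DESeq2, and -0.01 with RLE factors and with no filter. With library size alone RFNG was 0.01 and SLC35C2 was 0.06. With libraries left out singly, the lowest and highest values were -0.12 and 0.12 for FUT10, -0.01 and 0.29 for FUT4, -0.02 and 0.20 for FUT8, -0.22 and 0.01 for GMDS, -0.03 and 0.36 for LFNG, -0.24 and 0.04 for RFNG, and -0.04 and 0.01 for SLC35C2. The cause of these changes was not tested. FUT3 and the genes near 1 CPM rest on few counts, so that a moderate change in them may have been missed. Moderate changes may also have been missed in genes with more counts. MTHFD2, at a mean of 225 CPM with minocycline and 132 CPM in controls, did not pass in edgeR (adjusted p = 0.078). POFUT1 passed only without control replicate 1.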

Other observations

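Other enzymes that finish glycans in the Golgi are described here for context. Of 12 sialyltransferase genes none passed, and the median log2 fold change was 0.02 (-0.01 without control replicate 1). The ST3GAL and ST6GAL products among them add sialic acid to galactose ends, which FUT1 also uses. ST6GAL1 had 15.5, 15.2 and 14.5 CPM in minocycline replicates 1, 2 and 3, against 11.6, 10.6 and 11.8 CPM in control replicates 1, 2 and 3. Its groups did not overlap, its log2 fold change was 0.41 ± 0.15 (edgeR adjusted p = 0.82), and control replicate 1 lay with the other controls. ST6GAL2 had 31, 28 and 20 counts with minocycline and 18, 8 and 5 in controls, a log2 fold change of 1.28 ± 0.44 (adjusted p = 0.82). ST6GALNAC6 was lower in all minocycline libraries, at 56.6 ± 4.55 CPM against 73.8 ± 11.1 CPM (SD, n = 3 each; log2 fold change -0.38 ± 0.15, adjusted p = 0.82).

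Of 12 enzymes that trim and branch N-glycans none passed, and 9 had estimates above 0, as had 8975 of the 17225 genes tested. The median log2 fold change of these enzymes was 0.24 (0.52 without control replicate 1). The mannosidase gene MAN1A1 had 59.3, 64.8 and 56.2 CPM with minocycline and 65.9, 32.1 and 24.9 CPM in controls, so that control replicate 1 was the highest of all 6 libraries. Its log2 fold change was 0.55 ± 0.31 (adjusted p = 0.82). MAN1B1 had 0.29 ± 0.14 and MGAT2 had 0.57 ± 0.32. Without control replicate 1, 7 of the 12 passed as higher, MAN1A1 with a log2 fold change of 1.08 and MAN1B1 with 0.39 among them, in a setting where 17.9% of all genes passed. ST6GAL2 (1.88) and ST6GALNAC6 (-0.49) also passed there, and ST6GAL1 did not. Glycans were not measured.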
